A study of Homo sapiens with 4 samples.

Results

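The aminoacyl-tRNA synthetase genes were described across 4 RNA sequencing libraries of human hepatocellular carcinoma cell lines. Members were chosen by gene symbol, with no measured value in the rule, and all 38 were found among the 18382 different symbols of the table. They comprise 20 genes of cytosolic enzymes, 16 of mitochondrial enzymes, and the genes of 2 scaffold proteins, AIMP1 and AIMP2. The groups were Huh7 cells transfected with ODC1 siRNA, Huh7 cells with negative control siRNA, Huh1 cells with ODC1 siRNA and Huh1 cells with negative control siRNA. Each group is a single library, and levels are given as RPKM, read counts scaled to transcript length and to the mapped reads of the library. ODC1 encodes ornithine decarboxylase, which makes putrescine at the entry to polyamine synthesis. Neither the siRNA sequences nor the dose or harvest time is stated in the labels.

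Aminoacyl-tRNA synthetases join each amino acid to its tRNA and so supply the ribosome with charged tRNA. Cytosol and mitochondria use separate enzymes for most amino acids, all encoded in the nucleus. GARS and KARS each encode the enzyme of both compartments, and EPRS encodes a fused enzyme for glutamate and proline. Mitochondria have no glutaminyl-tRNA synthetase and instead charge that tRNA with glutamate through EARS2, after which an amidotransferase made of QRSL1, GATB and GATC converts it. Several cytosolic enzymes (EPRS, IARS, LARS, MARS, QARS, RARS, KARS and DARS) assemble with AIMP1, AIMP2 and EEF1E1 in the multi-synthetase complex. Many cytosolic synthetase genes are known targets of ATF4, the transcription factor of the amino acid and integrated stress responses, which binds C/EBP-ATF composite elements in its target promoters.

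The core of the composite element was looked for in the members' promoters, because ATF4 is tied to the cytosolic genes. The word TGATGNAA was searched on both strands from 250 bases before to 50 bases after each RefSeq gene start (build GRCh38.p14). RefSeq promoters were matched for 16 of the 20 cytosolic, 14 of the 16 mitochondrial and both scaffold genes. The word was present in 7 of the 16 cytosolic genes (43.8%) and in 1 of the 14 mitochondrial genes (7.14%), YARS2, and in neither scaffold gene. Of all 27305 genes in the promoter table, 4.46% held it in at least 1 promoter (3.62% of 35116 promoters). A match is a description and not a shown binding site, and a window without one says nothing of the factor. The matches of the 7 cytosolic genes are printed here as 30 bases on the strand of the gene, with the word or its reverse complement in capitals.
AARS, chr16:70289675-70289704, minus strand: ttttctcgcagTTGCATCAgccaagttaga
CARS, chr11:3057407-3057436, minus strand: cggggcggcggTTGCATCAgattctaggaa
GARS, chr7:30594834-30594863, plus strand: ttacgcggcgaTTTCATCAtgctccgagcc
IARS, chr9:92293692-92293721, minus strand: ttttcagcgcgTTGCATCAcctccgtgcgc
MARS, chr12:57488053-57488082, plus strand: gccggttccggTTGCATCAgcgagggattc
NARS, chr18:57621804-57621833, minus strand: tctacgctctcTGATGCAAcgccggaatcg
TARS, chr5:33440956-33440985, plus strand: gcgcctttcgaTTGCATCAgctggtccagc
In IARS, MARS, CARS, TARS and NARS the word began at -13, -4, -2, 3 and 15 relative to the gene start, where 1 is the first transcribed base. In GARS it began at -33 and in AARS at -187. CARS, GARS and TARS each have 2 promoters in the table, of which 1 held the word. IARS, MARS, CARS, TARS and AARS hold the same 8 letters, TTGCATCA, and NARS holds their reverse complement.

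HARS and HARS2, paralogs for cytosolic and mitochondrial histidyl-tRNA synthetase, lie head to head. Their RefSeq starts, at 140691370 (HARS, minus strand) and 140691455 (HARS2, plus strand) on chromosome 5, are separated by 84 bases with a GC content of 59.5%. The whole stretch between the starts is shown on the plus strand because both genes are read from it.
HARS to HARS2, chr5:140691371-140691454: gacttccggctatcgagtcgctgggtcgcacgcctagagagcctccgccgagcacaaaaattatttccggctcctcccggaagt
Values of the pair in the libraries are given with the line comparison.

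Depth was between 10215332 and 13384836 reads per library, recovered from the steps of the low values. At the GENCODE transcript lengths the members had between 75 (FARS2) and 7681 reads (AARS) per library. ODC1, the targeted gene, stood at 7.50 RPKM with ODC1 siRNA and 167 RPKM with control siRNA in Huh7, and 25.0 RPKM with ODC1 siRNA and 103 RPKM with control siRNA in Huh1. Its log2 difference was -4.30 in Huh7 and -2.01 in Huh1, the direction of the labels. The hepatocyte marker ALB ranged from 920.4 to 3447 RPKM over the libraries. Summed over 12 hepatocyte markers the level was 3060.3 and 3822 RPKM in Huh7 (ODC1 and control siRNA), against 5985 and 6613 RPKM in Huh1 (ODC1 and control siRNA). Summed over 6 fibroblast markers it was 370.4 and 284 RPKM in Huh7, against 15.7 and 12.1 RPKM in Huh1 (same order of siRNAs). Summed over 6 endothelial and blood markers it was 6.34 and 3.94 RPKM in Huh7, against 25.4 and 23.6 RPKM in Huh1. CDH5 and HBB were listed at 0 in every library, and VWF, PTPRC and CD14 stayed under 1 RPKM. CD68, a macrophage marker that other cells also express, made up nearly all of that sum and was lower in Huh7 (log2 difference -2.12, limma adjusted p = 1.28e-06). The sums of all 3 lists differed between the lines, but the hepatocyte markers went both ways. Of these 12 genes limma called 5 higher in Huh7, among them AFP (log2 difference 4.93) and TTR (2.41). Limma called the other 7 lower, where 43.1% of all tested genes were called higher and 30.8% lower. The markers' part in the line differences below was not tested. In bulk libraries fewer cells of a type and less RNA per cell cannot be told apart.

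Cytosolic synthetase genes stood well above the median gene in every library, and most mitochondrial ones were near it or below. RPKM is scaled to transcript length, so levels can be set side by side between genes. The median level of the 20 cytosolic genes was 68.5 and 70.7 RPKM in Huh7 (ODC1 and control siRNA), and 67.1 and 69.2 RPKM in Huh1 (ODC1 and control siRNA). That of the 16 mitochondrial genes was 10.9 and 10.9 RPKM in Huh7, and 10.1 and 10.7 RPKM in Huh1. The mitochondrial median was close to that of all 12039 tested genes, which lay between 10.2 and 11.1 RPKM. The cytosolic range ran from 21.1 RPKM (CARS) to 216 RPKM (AARS) and the mitochondrial range from 3.14 RPKM (PARS2) to 70.2 RPKM (IARS2). For the same amino acid, the cytosolic gene was higher in all 17 pairings and in each of the 4 libraries.

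**Figure D1:**
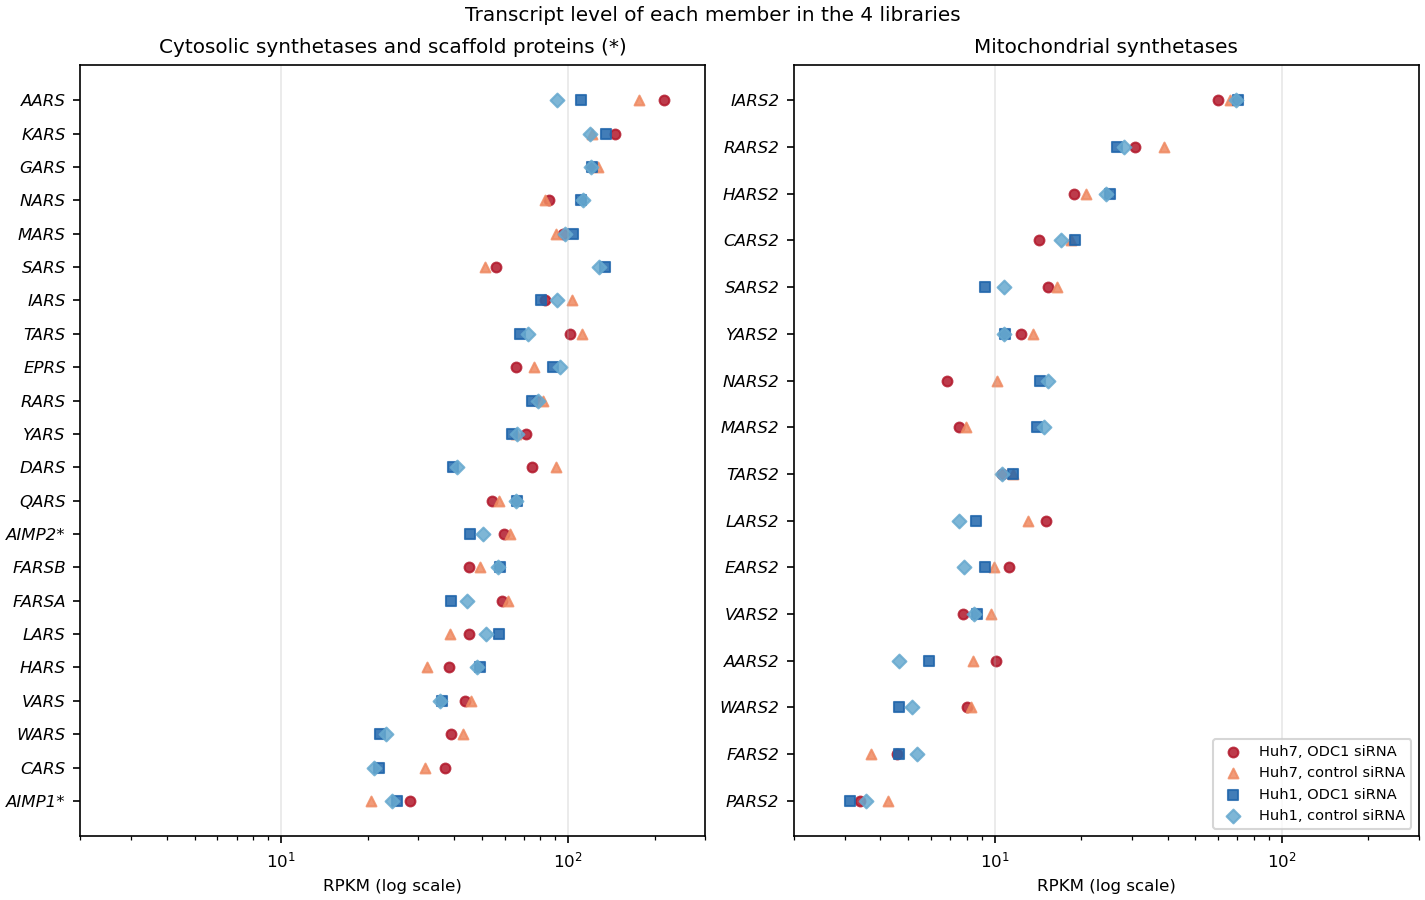
Level of the 38 members in RPKM (log axis), with 1 symbol per library, ordered by mean level within cytosolic with scaffold genes (left) and mitochondrial genes (right). Mitochondrial genes sit mostly between 3 and 40 RPKM with IARS2 above them, and the 4 symbols of SARS, AARS and DARS separate by line.

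The size of the gap between compartments differed by amino acid. AARS, KARS, GARS and NARS had the highest mean level of the cytosolic genes, and CARS, WARS, VARS and HARS the lowest. IARS2, RARS2, HARS2 and CARS2 led the mitochondrial genes, and PARS2, FARS2, WARS2 and AARS2 were lowest. IARS2 stood at 60.0 RPKM with ODC1 siRNA and 65.8 RPKM with control siRNA in Huh7, and 70.2 RPKM with ODC1 siRNA and 69.6 RPKM with control siRNA in Huh1, so IARS was only 1.38 and 1.57 times as high in Huh7 (ODC1 and control siRNA) and 1.15 and 1.32 times in Huh1. PARS2 itself stood at 3.41 RPKM with ODC1 siRNA and 4.26 RPKM with control siRNA in Huh7, and 3.14 RPKM with ODC1 siRNA and 3.57 RPKM with control siRNA in Huh1, the lowest level of any member in 3 of the 4 libraries. AARS was between 18.8 and 21.3 times as high as AARS2. The fused EPRS was between 17.8 and 28.2 times as high as PARS2, the mitochondrial prolyl-tRNA synthetase gene. FARSA and FARSB encode the alpha and beta subunits of cytosolic phenylalanyl-tRNA synthetase, which joins them in equal number. FARSA over FARSB was 1.31 and 1.25 in Huh7 (ODC1 and control siRNA), against 0.673 and 0.779 in Huh1 (ODC1 and control siRNA). The subunit gene with the higher RPKM was thus FARSA in Huh7 and FARSB in Huh1. By approximate read counts FARSB was higher in every library, so the order in Huh7 rests on the scaling to transcript length.

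The next question was which synthetase genes differed between ODC1 siRNA and control siRNA. Differences were taken on log2(RPKM + 1) and tested over both lines with limma, a linear model that shares its estimate of variance across genes. None of the 38 members passed, where 2.12% of the 12039 tested genes passed (Benjamini-Hochberg adjusted p, threshold 0.05). At an unadjusted limma p under 0.05 there were 7 members (18.4%), AARS, KARS, LARS, AARS2 and AIMP1 higher and IARS and NARS2 lower, against 19.0% of all tested genes. No member differed 1.5-fold in either line on log2(RPKM + 1), where 5.69% of the genes with at least 1 RPKM did in Huh7 and 1.37% in Huh1. The test rests on 1 residual degree of freedom, which is the difference between the lines in their response to the siRNA. Its p-values therefore set the mean response against that difference, with variance shared across genes, and measure no spread among repeat libraries. Each combination of line and siRNA has 1 library. Variation between cultures or library preparations therefore cannot be told apart from the response, and part of it may be technical. Over the 38 members the limma 95% intervals of the log2 difference reached no lower than -0.58 (NARS2) and no higher than 0.51 (AARS2). The other 31 members had mean log2 differences between -0.20 (RARS2) and 0.18 (EARS2). Markers also differed with the siRNA. Of the 12 hepatocyte markers limma called ALB (-0.32), FGA (-0.36) and FGG (-0.38) lower and TTR (0.47) higher, with medians of the list of -0.35 in Huh7 and -0.06 in Huh1. Of the fibroblast markers it called LUM higher (0.39, adjusted p = 0.0403), and of the endothelial and blood markers none. The calls of ALB, FGA, FGG, TTR and LUM were all lost with quantile normalization (limma adjusted p between 0.0523 and 0.169). They were also lost with a pseudocount of 0.1 (between 0.0566 and 0.0754), and all but that of ALB with a filter at 5 RPKM. The markers' part in the members' differences was not tested.

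AARS, for cytosolic alanyl-tRNA synthetase (chr16:70252295-70289543, minus strand, in GENCODE release 29 on GRCh38), came closest. It stood at 216 RPKM with ODC1 siRNA and 176 RPKM with control siRNA in Huh7, and 111 RPKM with ODC1 siRNA and 91.5 RPKM with control siRNA in Huh1. Both ODC1 libraries were higher than the control of their line by nearly the same amount, 0.29 in Huh7 and 0.28 in Huh1 on the log2 scale. The mean was 0.28 (SE 0.0618, limma adjusted p = 0.0580, higher in 2 of 2 lines), with the adjusted p between 0.0384 and 1.00 over the alternatives and below the threshold with upper quartile scaling (0.0455) and with the trend on counting variance (0.0384). AARS2, for the mitochondrial alanyl enzyme, stood at 10.1 RPKM with ODC1 siRNA and 8.40 RPKM with control siRNA in Huh7, and 5.91 RPKM with ODC1 siRNA and 4.66 RPKM with control siRNA in Huh1. It too was higher in both ODC1 libraries, by 0.24 and 0.29, without passing (mean 0.27, SE 0.108, limma adjusted p = 0.231).

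Other cytosolic members with the same sign in both lines and an unadjusted p under 0.05 were KARS, LARS and IARS, each part of the multi-synthetase complex. KARS, the lysyl enzyme of both compartments, stood at 145 RPKM with ODC1 siRNA and 121 RPKM with control siRNA in Huh7, and 135 RPKM with ODC1 siRNA and 119 RPKM with control siRNA in Huh1 (log2 difference 0.26 and 0.18). In both lines the ODC1 library was the higher one. LARS, for leucyl-tRNA synthetase, stood at 45.3 RPKM with ODC1 siRNA and 38.7 RPKM with control siRNA in Huh7, and 57.3 RPKM with ODC1 siRNA and 51.5 RPKM with control siRNA in Huh1 (log2 difference 0.22 and 0.15). IARS, for the isoleucyl enzyme, was lower, at 82.8 RPKM with ODC1 siRNA and 103 RPKM with control siRNA in Huh7, and 80.6 RPKM with ODC1 siRNA and 91.7 RPKM with control siRNA in Huh1 (log2 difference -0.32 and -0.18). None of them passed, with limma adjusted p = 0.113 for KARS, 0.222 for LARS and 0.106 for IARS. The 10 members in the complex differed in sign, 4 being positive in Huh7 and 5 in Huh1, with medians of -0.06 and -0.02. EEF1E1, the other scaffold of the complex and not among the 38, was at -0.09 and -0.35 (adjusted p = 0.226). The 12 cytosolic synthetase genes listed as ATF4 targets had medians of 0.06 in Huh7 and -0.01 in Huh1. The 8 cytosolic genes outside that list had medians of -0.07 in Huh7 and 0.01 in Huh1, and the lists were not tested against each other. Of the 7 with the composite word printed above, AARS, CARS and MARS were positive in both lines (CARS at 0.22 and 0.05, MARS at 0.07 and 0.09). IARS and TARS were negative in both (TARS at -0.14 and -0.09), and GARS (-0.07 and 0.02) and NARS (0.05 and -0.03) had opposite signs in the lines.

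**Figure D2:**
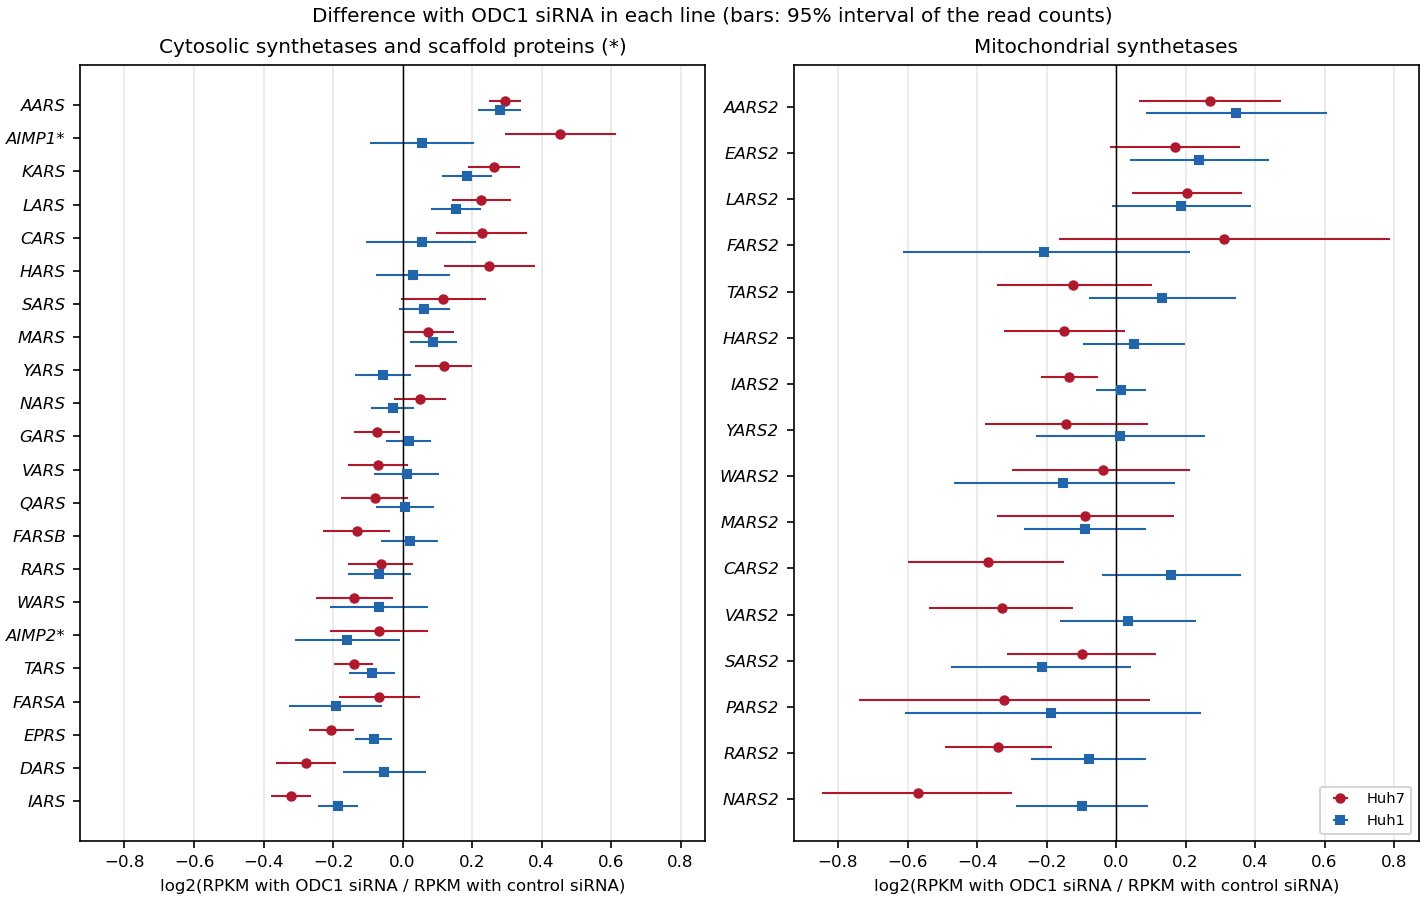
Log2 ratio of RPKM with ODC1 siRNA over control siRNA for each member in Huh7 (circles) and Huh1 (squares), without a pseudocount, with bars for the 95% interval of the read counts alone. AARS, AARS2, KARS and LARS lie right of 0 in both lines and IARS left of it. For NARS2, CARS2 and AIMP1 the bar leaves out 0 in Huh7 and crosses it in Huh1. CARS2 lies left of 0 in Huh7 and right of it in Huh1.

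The largest difference of each line was that of a mitochondrial gene, NARS2 in Huh7 and AARS2 in Huh1, and none passed the test. In Huh7, 12 of the 16 were negative with a median of -0.12, beside -0.06 for the cytosolic genes (11 of 20 negative) and 0.00 for all tested genes. In Huh1, 7 of the 16 were negative with a median of 0.01, beside 0.01 for the cytosolic genes (9 of 20 negative) and 0.02 for all tested genes. The Huh1 medians of both sets turned negative, the lowest at -0.01, with quantile normalization and upper quartile scaling. NARS2, for mitochondrial asparaginyl-tRNA synthetase, stood at 6.84 RPKM with ODC1 siRNA and 10.2 RPKM with control siRNA in Huh7, and 14.4 RPKM with ODC1 siRNA and 15.4 RPKM with control siRNA in Huh1 (log2 difference -0.51 and -0.09, limma adjusted p = 0.227 over both lines). RARS2, for the arginyl enzyme, stood at 30.8 RPKM with ODC1 siRNA and 39.0 RPKM with control siRNA in Huh7, and 26.7 RPKM with ODC1 siRNA and 28.2 RPKM with control siRNA in Huh1 (log2 difference -0.33 and -0.08, adjusted p = 0.269). In both genes the 95% counting interval left out 0 in Huh7 and included it in Huh1. EARS2, the mitochondrial glutamyl enzyme gene, stood at 11.2 RPKM with ODC1 siRNA and 9.97 RPKM with control siRNA in Huh7, and 9.24 RPKM with ODC1 siRNA and 7.83 RPKM with control siRNA in Huh1 (log2 difference 0.15 and 0.21). The lowest values in Huh1 were those of SARS2 (-0.19) and the cytosolic FARSA (-0.19), at -0.09 and -0.07 in Huh7.

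The lines differed most in their response at CARS2, FARS2, NARS2 and AIMP1, by -0.50, 0.42, -0.42 and 0.38 (Huh7 minus Huh1), which with 1 library a group was not tested. CARS2, for mitochondrial cysteinyl-tRNA synthetase, stood at 14.2 RPKM with ODC1 siRNA and 18.4 RPKM with control siRNA in Huh7, and 19.1 RPKM with ODC1 siRNA and 17.1 RPKM with control siRNA in Huh1. Its log2 difference was -0.35 in Huh7 and 0.15 in Huh1, with counting intervals of -0.60 to -0.15 around -0.37 and -0.04 to 0.36 around 0.16 when no pseudocount is added. The interval left out 0 in Huh7 and included it in Huh1. FARS2, the mitochondrial phenylalanyl enzyme gene, stood at 4.59 RPKM with ODC1 siRNA and 3.70 RPKM with control siRNA in Huh7, and 4.64 RPKM with ODC1 siRNA and 5.36 RPKM with control siRNA in Huh1 (log2 difference 0.25 and -0.17), and its 75 to 119 reads per library left both counting intervals across 0. AIMP1, for a scaffold protein that is also the precursor of a secreted cytokine, stood at 28.1 RPKM with ODC1 siRNA and 20.5 RPKM with control siRNA in Huh7, and 25.2 RPKM with ODC1 siRNA and 24.3 RPKM with control siRNA in Huh1 (log2 difference 0.44 and 0.05, limma adjusted p = 0.253 over both lines). Its partner AIMP2 stood at 59.7 RPKM with ODC1 siRNA and 62.5 RPKM with control siRNA in Huh7, and 45.3 RPKM with ODC1 siRNA and 50.6 RPKM with control siRNA in Huh1 (log2 difference -0.07 and -0.16). Exons of TBCK overlap 11.6% of the exonic bases of AIMP1 on the other strand, and those of EIF2AK1 overlap 28.9% of AIMP2, so reads may be shared if strand was not used. TBCK was at 4.06 and 3.89 RPKM in Huh7 with ODC1 and control siRNA, and EIF2AK1 at 68.3 and 75.3 RPKM.

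Counting error alone was also set beside each member. In Huh7 the 95% counting interval lay above 0 for 10 of 38 members, where it did for 22.7% of all tested genes, and below 0 for 12, where it did for 22.3%. In Huh1 it lay above 0 for 6 members (18.6% of all tested genes) and below 0 for 5 (13.3% of all tested genes). The members were read more deeply than other genes, with median counts of 1007 and 1063 reads in Huh7 (ODC1 and control siRNA) and 761.5 and 996 in Huh1, against 368 and 441 in Huh7 and 372 and 437 in Huh1 over all tested genes. Members above 0 in both lines were AARS, KARS, LARS, MARS and AARS2, and those below 0 in both were EPRS, IARS and TARS. The share of all tested genes past 0 in both lines is not given here, so these names are a description. For MARS the Huh7 interval began at 0.0011, on approximate read counts. Exons of ARHGAP9 and DDIT3 overlap 12.4% of the exonic bases of MARS on the other strand. Signs were opposite between the lines for 13 members, and for none of these did both intervals leave out 0. These intervals cover neither biological nor preparation error.

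The last comparison asked how Huh7 differed from Huh1 over both siRNAs. The libraries of a line differ in siRNA and are not repeats of each other. P-values of this comparison rest on the same 1 residual degree of freedom and measure no spread among cultures of a line. Limma called 14 members higher in Huh7 (36.8%) and 10 lower (26.3%), where 43.1% of all tested genes were called higher and 30.8% lower. Neither share was above that of all genes. By size, 11 members differed at least 1.5-fold with ODC1 siRNA and 8 with control siRNA, shares of the 38 that lie below the 47.7% of all genes in each. The median absolute difference was 0.32 over the members and 0.54 over all tested genes. All tested genes had a median difference of 0.13 towards Huh7, which quantile normalization lowered to 0.01, and the values below can be read against that shift. The members' median was 0.06, and the cytosolic median, 0.05 with ODC1 siRNA and 0.04 with control siRNA, turned negative with both other scalings.

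SARS, for cytosolic seryl-tRNA synthetase (chr1:109213918-109238169, plus strand), had the largest line difference. It stood at 55.8 RPKM (ODC1 siRNA) and 51.5 RPKM (control siRNA) in Huh7, against 134 RPKM (ODC1 siRNA) and 128 RPKM (control siRNA) in Huh1. The log2 difference was -1.27 (SE 0.0670, limma adjusted p = 5.11e-07), and SARS ranked among the 2 highest cytosolic genes in both Huh1 libraries. SARS2, the mitochondrial seryl enzyme gene, was higher in Huh7, at 15.4 RPKM (ODC1 siRNA) and 16.4 RPKM (control siRNA) in Huh7, against 9.26 RPKM (ODC1 siRNA) and 10.7 RPKM (control siRNA) in Huh1 (log2 difference 0.62, adjusted p = 0.00038). SARS over SARS2 was 3.64 and 3.13 in Huh7 (ODC1 and control siRNA), against 14.5 and 11.9 in Huh1 (ODC1 and control siRNA). Exons of MRPS12 overlap 10.8% of the exonic bases of SARS2 on the other strand, and MRPS12 itself was lower in Huh7 (log2 difference -0.84).

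Genes of the aspartyl, alanyl, tryptophanyl, cysteinyl, threonyl and phenylalanyl (alpha) enzymes were higher in Huh7. DARS, part of the multi-synthetase complex (chr2:135906677-135986100, minus strand), stood at 74.6 RPKM (ODC1 siRNA) and 90.4 RPKM (control siRNA) in Huh7, against 39.6 RPKM (ODC1 siRNA) and 41.1 RPKM (control siRNA) in Huh1 (log2 difference 1.01, SE 0.0801, limma adjusted p = 6.26e-06). AARS differed by 0.95 (SE 0.0618, adjusted p = 1.87e-06), and its level in Huh7 with ODC1 siRNA was the highest of any member in any library. WARS, the tryptophanyl enzyme gene, which interferon is known to induce, stood at 39.0 RPKM (ODC1 siRNA) and 43.0 RPKM (control siRNA) in Huh7, against 22.1 RPKM (ODC1 siRNA) and 23.2 RPKM (control siRNA) in Huh1 (log2 difference 0.83, adjusted p = 2.04e-05). In each of these genes both Huh7 libraries lay above both Huh1 libraries. CARS stood at 37.2 RPKM (ODC1 siRNA) and 31.7 RPKM (control siRNA) in Huh7, against 21.96 RPKM (ODC1 siRNA) and 21.1 RPKM (control siRNA) in Huh1 (log2 difference 0.65). TARS stood at 101 RPKM (ODC1 siRNA) and 111 RPKM (control siRNA) in Huh7, against 68.0 RPKM (ODC1 siRNA) and 72.3 RPKM (control siRNA) in Huh1 (log2 difference 0.59). FARSA, the alpha subunit gene, stood at 58.8 RPKM (ODC1 siRNA) and 61.6 RPKM (control siRNA) in Huh7, against 39.0 RPKM (ODC1 siRNA) and 44.5 RPKM (control siRNA) in Huh1 (log2 difference 0.52). All 3 were above Huh1 with either siRNA, as were AIMP2 (0.35) and VARS, the valyl enzyme gene (0.31, at 43.7 RPKM (ODC1 siRNA) and 45.9 RPKM (control siRNA) in Huh7, against 36.2 RPKM (ODC1 siRNA) and 35.9 RPKM (control siRNA) in Huh1). DARS and WARS have antisense partners that overlap 7.60% (DARS-AS1) and 10.6% (AL157871.4 and WDR25) of their exonic bases.

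Cytosolic genes lower in Huh7 besides SARS were HARS (-0.46), NARS (-0.40), LARS (-0.37), EPRS (-0.36), FARSB (-0.28) and QARS (-0.24). Of these, NARS, for the asparaginyl enzyme, stood at 85.8 RPKM (ODC1 siRNA) and 82.8 RPKM (control siRNA) in Huh7, against 111 RPKM (ODC1 siRNA) and 113 RPKM (control siRNA) in Huh1. EPRS, for the fused glutamyl-prolyl enzyme, stood at 65.8 RPKM (ODC1 siRNA) and 75.8 RPKM (control siRNA) in Huh7, against 88.6 RPKM (ODC1 siRNA) and 93.8 RPKM (control siRNA) in Huh1. FARSB, the beta subunit gene, stood at 45.0 RPKM (ODC1 siRNA) and 49.3 RPKM (control siRNA) in Huh7, against 57.9 RPKM (ODC1 siRNA) and 57.1 RPKM (control siRNA) in Huh1. In each of these 3 genes both Huh7 libraries lay below both Huh1 libraries. QARS, for the glutaminyl enzyme, stood at 54.4 RPKM (ODC1 siRNA) and 57.5 RPKM (control siRNA) in Huh7, against 66.2 RPKM (ODC1 siRNA) and 65.9 RPKM (control siRNA) in Huh1, with limma adjusted p = 0.0154, a call lost with no filter (0.0680), without the trend (0.0694) and without the siRNA term (0.0502). LARS, whose levels are given above, was likewise lower in both. With no filter on low values, EPRS, FARSB, HARS, QARS, VARS, EARS2, HARS2, NARS2 and RARS2 lost their line calls. The 14 members that limma did not call lay between -0.23 (FARS2) and 0.23 (YARS2), among them both enzymes of dual location, GARS (0.03) and KARS (0.06), whose sign turned with both other scalings. GARS stood at 120.2 RPKM (ODC1 siRNA) and 127 RPKM (control siRNA) in Huh7, against 121 RPKM (ODC1 siRNA) and 119.7 RPKM (control siRNA) in Huh1.

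**Figure D3:**
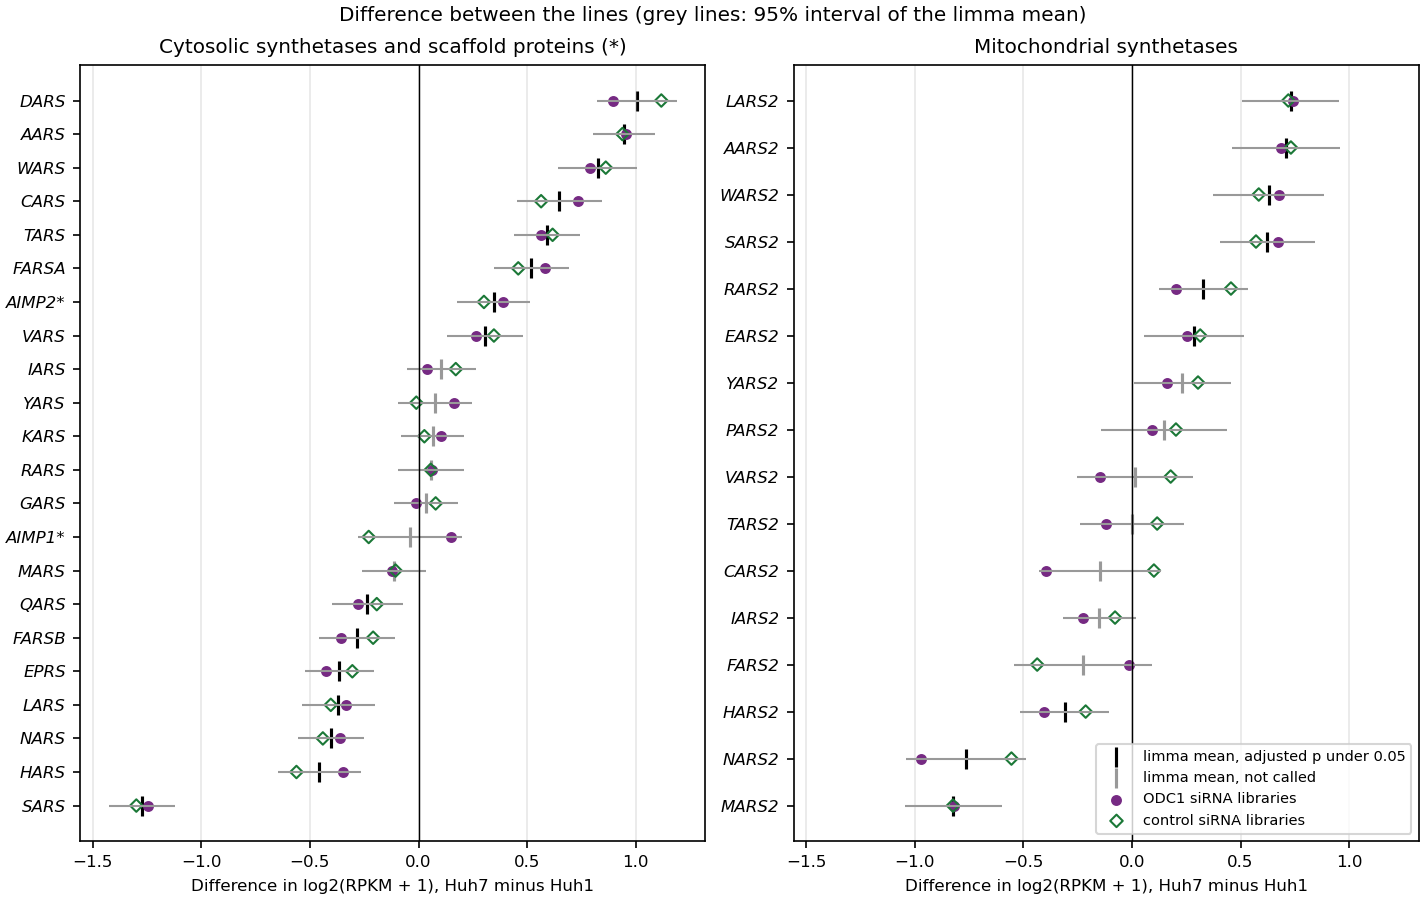
Difference in log2(RPKM + 1) between Huh7 and Huh1 for each member, in the ODC1 siRNA libraries (filled circles) and the control siRNA libraries (open diamonds), with the limma mean as a tick (black where the adjusted p is under 0.05) and its 95% interval as a grey line. SARS lies alone at -1.27, and the circle and diamond of most called members lie close together.

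Of the 16 mitochondrial genes, limma called 6 higher and 3 lower in Huh7. Of all tested genes it called 43.1% higher and 30.8% lower. LARS2, for mitochondrial leucyl-tRNA synthetase, stood at 15.0 RPKM (ODC1 siRNA) and 13.1 RPKM (control siRNA) in Huh7, against 8.58 RPKM (ODC1 siRNA) and 7.54 RPKM (control siRNA) in Huh1 (log2 difference 0.73, limma adjusted p = 0.000159). AARS2 (0.71), WARS2 (0.63), SARS2 (0.62), RARS2 (0.33) and EARS2 (0.28) were higher as well, although the call of EARS2 was lost with both other scalings (adjusted p = 0.116 with quantile normalization and 0.0985 with upper quartile scaling). WARS2, the mitochondrial tryptophanyl enzyme gene, stood at 8.02 RPKM (ODC1 siRNA) and 8.24 RPKM (control siRNA) in Huh7, against 4.65 RPKM (ODC1 siRNA) and 5.17 RPKM (control siRNA) in Huh1. MARS2, the mitochondrial methionyl enzyme gene, stood at 7.48 RPKM (ODC1 siRNA) and 7.97 RPKM (control siRNA) in Huh7, against 13.99 RPKM (ODC1 siRNA) and 14.9 RPKM (control siRNA) in Huh1 (log2 difference -0.82, adjusted p = 7.7e-05). MARS2 was lower in both Huh7 libraries, and so were NARS2 (log2 difference -0.76, adjusted p = 0.000441) and HARS2 (-0.31, adjusted p = 0.0126).

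The head-to-head neighbours HARS and HARS2 were both lower in Huh7. HARS stood at 38.4 RPKM (ODC1 siRNA) and 32.3 RPKM (control siRNA) in Huh7, against 49.3 RPKM (ODC1 siRNA) and 48.2 RPKM (control siRNA) in Huh1. HARS2 stood at 18.8 RPKM (ODC1 siRNA) and 20.9 RPKM (control siRNA) in Huh7, against 25.3 RPKM (ODC1 siRNA) and 24.4 RPKM (control siRNA) in Huh1. With ODC1 siRNA HARS was at 0.24 in Huh7 and 0.03 in Huh1 on the log2 scale, and HARS2 at -0.14 and 0.05, neither passing limma's test (adjusted p = 0.414 and 0.827). Exons annotated for HARS overlap 11.7% of the exonic bases of HARS2 on the other strand, and reads of these paralogs may be shared, so their separate values are uncertain. HARS over HARS2 was 2.04 and 1.55 in Huh7 (ODC1 and control siRNA), and 1.95 and 1.98 in Huh1.

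Genes for the same amino acid were compared between the compartments. Over the 17 pairings, the cytosolic and mitochondrial differences had the same sign in 9 and opposite signs in 8. Pearson's r was 0.08 and Spearman's rho 0.16 over these 17 points, a description, since EPRS and FARS2 enter it more than once and all points share the same 4 libraries. Both genes were called in 7 of the 17 pairings. Limma called 43.1% of all tested genes higher and 30.8% lower in Huh7. These are shares of single genes, and no share for pairs of other genes is given, so the count of 7 is a description. Alanine, tryptophan, histidine and asparagine had the same sign, and serine, leucine and glutamate opposite signs. With no filter 4 pairings had both genes called, and histidine, asparagine and glutamate were not among them. The glutamate pair also lost its call with both other scalings and without the siRNA term.

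**Figure D4:**
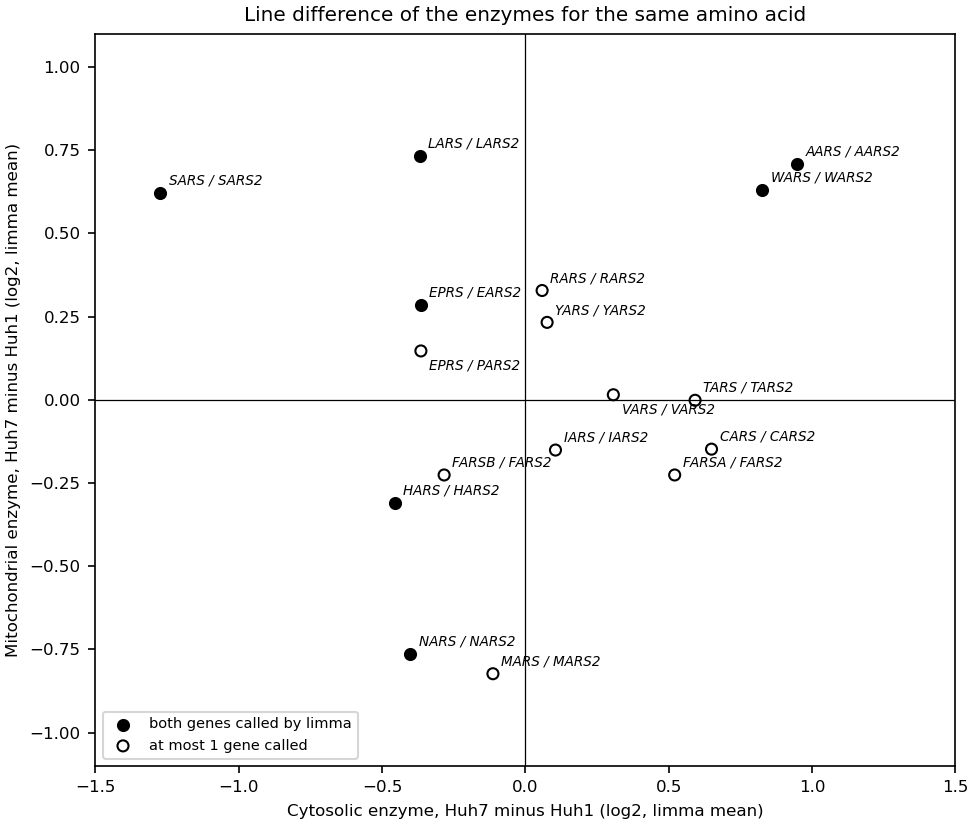
Line difference (Huh7 minus Huh1, limma mean, log2) of the mitochondrial enzyme gene against that of the cytosolic enzyme gene for the same amino acid, with filled points where both genes were called. The points fill all quadrants, with AARS and AARS2 at the upper right, SARS and SARS2 at the upper left, and NARS and NARS2 at the lower left.

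Of 15 other tRNA charging genes, 14 were in the table, GATB among them under its older symbol PET112. None passed limma's test of ODC1 siRNA, where 2.12% of all tested genes passed. Between the lines limma called 5 higher and 5 lower in Huh7, where 43.1% of all tested genes were called higher and 30.8% lower. The largest mean differences with ODC1 siRNA were those of AARSD1 (0.29), an editing enzyme for mischarged alanine tRNA, TARSL2 (-0.28), a threonyl-tRNA synthetase paralog, and PSTK (-0.27), with limma adjusted p = 0.388, 0.339 and 0.412. AARSD1 rests on 2 to 10 reads per library, and its counting intervals run from -1.05 to 1.88 in Huh7 and from -1.55 to 4.72 in Huh1. Between the lines, DTD1, a deacylase that clears D-amino acids from tRNA, was higher in Huh7 by 1.45 (adjusted p = 2.05e-06). PSTK, the kinase that acts on charged selenocysteine tRNA, stood at 1.32 RPKM (ODC1 siRNA) and 2.40 RPKM (control siRNA) in Huh7, against 5.64 RPKM (ODC1 siRNA) and 5.56 RPKM (control siRNA) in Huh1 (log2 difference -1.23, adjusted p = 0.00014).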

How the data were processed

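RNA sequencing libraries of Huh7 and Huh1, each transfected with ODC1 siRNA or negative control siRNA, were compared, with 1 library per combination. Per the labels' protocols the kit was Illumina TruSeq RNA. The submitters' processing notes name CASAVA 1.8.2, TopHat2 2.0.9 and hg19. How reads were counted, and whether strand was used, is not stated. The authors deposited RPKM, 1 value per RefSeq transcript in 18398 rows without a header. RPKM is scaled to depth and length, so no count model was used.

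Values were analysed as log2(RPKM + 1). The 12039 genes that reached 1 RPKM in some library were tested with limma 3.58.1 in R 4.3.3. The model held cell line and siRNA, with an intensity trend, and p-values were adjusted over all tested genes (Benjamini-Hochberg). It leaves 1 residual degree of freedom, the difference in response between the lines, for both comparisons. Limma's sharing of variance across genes adds 7.42. The line term pairs the libraries of the same cell line, as the labels give it. Fold rules within a line carry no test, and differences of low genes are understated by the pseudocount. Depth came from ratios of values under 0.3 RPKM and GENCODE 29 lengths, of which between 45.9% and 48.1% were ratios of whole numbers (relative tolerance 1e-06), so read counts are approximate. Counting intervals are exact Clopper-Pearson (95%) and cover counting error only. Gene positions are from GENCODE 29 and promoters from RefSeq, both on GRCh38, while the files use hg19.

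The members and lists were chosen with earlier results of these data known. Named with values were the called members, the 4 largest differences each way per contrast, the 4 highest and lowest of each compartment, the 4 largest line differences in response, AIMP1, AIMP2, HARS and HARS2. The fit was tested on simulated data. Alternatives were a pseudocount of 0.1, quantile and upper quartile scaling, filters at 0 and 5 RPKM, no trend, a trend on counting variance, a 2-fold rule, no block, and each library left out.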

Additional observations from a re-analysis of the deposited data

How the results depend on the processing

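The count of members called for ODC1 siRNA, 0, became 1 (AARS) with upper quartile scaling and with the trend on counting variance, and stayed 0 under the other 6 alternatives. Of these, no filter, limma without trend and the fit without the replicate block (the pairing by line) called 0 of all tested genes too, so their 0 says nothing of the members. Over all genes, upper quartile scaling called 268 higher and 196 lower (57.8% higher), against 181 and 74 (71.0% higher) in the fit reported. The count of members differing between the lines, 24, was 15 with no filter and between 21 and 25 otherwise, 21 being the fit without the replicate block. With the 2-fold rule the 11 members past 1.5-fold between the lines with ODC1 siRNA became 1, and the 8 with control siRNA became 2. Values near 0 changed sign without being called. NARS with ODC1 siRNA was at -0.029 with quantile normalization and -0.0062 with upper quartile scaling. Between the lines, KARS was at -0.0064 and -0.0248, and GARS at -0.0438 and -0.0557, under the same scalings, and PARS2 at -0.0378 with quantile normalization. IARS2 was called lower in Huh7 with both scalings, FARS2 with quantile normalization and MARS with upper quartile scaling (-0.20). With 1 library left out no degree of freedom remains, so the other line or siRNA alone gives the value: AARS with ODC1 siRNA then ranged from 0.28 to 0.29. Depth limited PARS2 and FARS2 most, at 75 to 122 reads per library.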

Other observations

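Genes of the ATF4 pathway other than synthetases were set beside the cytosolic enzymes. ATF4 itself stood at 233 RPKM with ODC1 siRNA and 208 RPKM with control siRNA in Huh7, and 147 RPKM with ODC1 siRNA and 134 RPKM with control siRNA in Huh1 (log2 difference 0.17 and 0.13, limma adjusted p = 0.232). Of 20 such genes only PPP1R15A, the stress-induced regulator of eIF2 alpha dephosphorylation, passed limma's test of ODC1 siRNA, where 2.12% of all genes passed. It stood at 66.0 RPKM with ODC1 siRNA and 28.4 RPKM with control siRNA in Huh7, and 26.4 RPKM with ODC1 siRNA and 16.6 RPKM with control siRNA in Huh1, and with ODC1 siRNA it rose by 0.91 (SE 0.123, adjusted p = 0.0163, higher in 2 of 2 lines). Its adjusted p was between 0.00519 and 1.00 over the alternatives, and the call was lost with no filter, without the trend and without the line term, where limma called none of all tested genes. CHAC1, a glutathione-degrading enzyme gene, was at -0.69 and -0.18, and ATF3, a stress-induced transcription factor gene, at 0.38 and 0.19 (adjusted p = 0.155 and 0.237). The list's medians were -0.06 in Huh7 and 0.07 in Huh1.

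Interferon response genes were set beside WARS in the line comparison. Of 13 tested, limma called 3 higher and 7 lower in Huh7, where 43.1% of all tested genes were called higher and 30.8% lower. Their median was -0.33, while WARS was higher by 0.83. OAS1 stood at 0.353 RPKM (ODC1 siRNA) and 0.394 RPKM (control siRNA) in Huh7, against 13.1 RPKM (ODC1 siRNA) and 14.6 RPKM (control siRNA) in Huh1, and MX1 at 2.05 RPKM (ODC1 siRNA) and 1.93 RPKM (control siRNA) in Huh7, against 0.120 RPKM (ODC1 siRNA) and 0.0252 RPKM (control siRNA) in Huh1. None of the 13 passed limma's test of ODC1 siRNA, where 2.12% of all tested genes passed. At an unadjusted limma p under 0.05 there were 2, against 19.0% of all tested genes.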
